A study of Homo sapiens with 11 samples.

Results

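Small nucleolar RNA (snoRNA) host genes are noncoding genes whose introns carry snoRNAs, the guides that direct 2'-O-methylation and pseudouridylation of ribosomal RNA. The introns are processed into snoRNAs when the host transcript is spliced, and the spliced host itself holds at most short reading frames. Several of these spliced hosts start with a pyrimidine tract like that of ribosomal protein mRNAs, enter ribosomes and are then removed by nonsense-mediated decay, the pathway that degrades transcripts with a premature stop codon. GAS5, the best known of them, was found as a transcript that accumulates in growth-arrested cells. The rows described here are the 7 hosts SNHG1, SNHG5, SNHG6, SNHG7, SNHG8, SNHG12 and GAS5, out of 31325 gene rows on the array, and all 7 were present. They were selected on their measured differences between miR-365a-3p and control arrays, and SNHG6 was singled out because it was among the largest rises. These differences are therefore given for the 7 genes as a description. The calls of the fit over all rows are counted once, beside the share of all rows called, and nothing is read from them.

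mRNA expression was measured on 11 Illumina HumanHT-12 v4 BeadChips in 4 groups. The human breast cancer line MDA-MB-231 received a miR-365a-3p mimic (n = 3) or a control miRNA (n = 3). The ovarian cancer line SKOV3, which the study also names as its derivative SKOV3.ip1, received the same mimic (n = 3) or control miRNA (n = 2). The labels place the arrays at 48 h, whereas the series description gives 24 h, and no label says that replicates were separate cultures, so p-values measure the spread between these arrays only. ERBB2, the receptor gene amplified in SKOV3, had a mean of 10.86 in the SKOV3 controls and 7.61 in the MDA-MB-231 controls (adjusted p = 0.000109, limma). EPCAM, an epithelial surface marker, was at 10.36 and 7.63 (adjusted p = 2.09e-05), the epithelial keratin gene KRT8 was at 10.20 and 9.20 (adjusted p = 0.00651), and KRT18 was at 7.90 and 8.01 (adjusted p = 0.729). VIM, the mesenchymal filament vimentin, was at 13.70 and 13.79 (adjusted p = 0.931) and did not separate the lines.

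The mimic carries the mature miR-365a-3p, printed here because it is the agent that distinguishes the groups. miR-365b-3p is printed beside it since both have the same bases. In the RefSeq table of build GRCh38.p14, the locus of miR-365a-3p is chr16:14309340-14309361 on the plus strand and that of miR-365b-3p is chr17:31575478-31575499 on the plus strand. Capitals mark the seed, bases 2 to 8.
miR-365a-3p: uAAUGCCCcuaaaaauccuuau
miR-365b-3p: uAAUGCCCcuaaaaauccuuau

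The promoters of the hosts are shown because several hosts moved together and because a pyrimidine tract at the start is described for such genes. Windows of 70 bases, 40 before the annotated start and 30 from it, were taken from RefSeq (GRCh38.p14) for the 6 hosts that matched, SNHG1, SNHG5, SNHG7, SNHG8, SNHG12 and GAS5. Capitals mark the unbroken run of C or T that begins at the annotated start. The windows are chr11:62855856-62855925 for SNHG1, chr6:85678704-85678773 for SNHG5, chr9:136728155-136728224 for SNHG7, chr1:28581844-28581913 for SNHG12 and chr1:173869016-173869085 for GAS5, all on the minus strand, and chr4:118278722-118278791 on the plus strand for SNHG8.
SNHG1: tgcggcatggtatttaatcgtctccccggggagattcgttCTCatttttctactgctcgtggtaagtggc
SNHG5: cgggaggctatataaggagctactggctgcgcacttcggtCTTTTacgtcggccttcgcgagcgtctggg
SNHG7: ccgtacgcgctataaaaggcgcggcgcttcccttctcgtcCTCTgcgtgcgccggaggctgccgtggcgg
SNHG8: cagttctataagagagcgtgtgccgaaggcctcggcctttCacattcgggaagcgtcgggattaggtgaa
SNHG12: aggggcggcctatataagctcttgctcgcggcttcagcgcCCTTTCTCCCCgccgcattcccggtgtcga
GAS5: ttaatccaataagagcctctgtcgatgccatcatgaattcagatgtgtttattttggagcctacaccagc

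All but GAS5 began with C at the annotated start. For each host gene the first entry of its symbol was taken, and other starts, of GAS5 or the rest, were not examined. The share over all promoters counts every entry. A C at the start followed by 4 bases that are each C or T stood in 2 of the 6 windows, those of SNHG5 and SNHG12. The same pattern stood in 3 of 10 matched promoters of other noncoding snoRNA hosts, in 15 of 40 of protein-coding snoRNA hosts (37.5%) and in 4.07% of all 35116 promoters of the table. TATAA on the sense strand, within 20 to 40 bases before the start, stood in 4 of the 6 windows (SNHG5, SNHG7, SNHG8 and SNHG12), in 1 of 10 and 4 of 40 promoters of the other hosts, and in 3.82% of all promoters. These patterns were looked for after the windows had been read and describe letters only.

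All values below are log2 expression after quantile normalization of the 11 arrays, differences are on that log2 scale with the standard error (SE) of the linear model, and a gene is called where its adjusted p is under 0.05. Levels are compared between samples of one gene, not between genes, whose probes differ. A difference of a gene near the lower limit of the array is compressed. The median of all rows was between 7.35 and 7.41 on every array in the deposited values.

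SNHG6, the host of SNORD87, showed the largest differences of the 7 hosts. In MDA-MB-231 cells it was at 10.70, 10.16 and 10.37 with miR-365a-3p and at 9.10, 8.58 and 8.52 in the controls. The SKOV3 arrays read 9.96, 9.47 and 9.73 with miR-365a-3p and 8.22 and 8.11 in the controls. Each miR-365a-3p array stood above each control array of its line, and the lowest miR-365a-3p array of SKOV3 also stood above the highest MDA-MB-231 control. The difference was 1.68 (SE 0.194, 3.21-fold) in MDA-MB-231 cells and 1.56 (SE 0.217, 2.94-fold) in SKOV3 cells. SNHG6 had rank 9 among the rises of 31325 rows for MDA-MB-231, rank 6 for SKOV3 and rank 4 by the mean of both lines, which was 1.62.

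**Figure D1:**
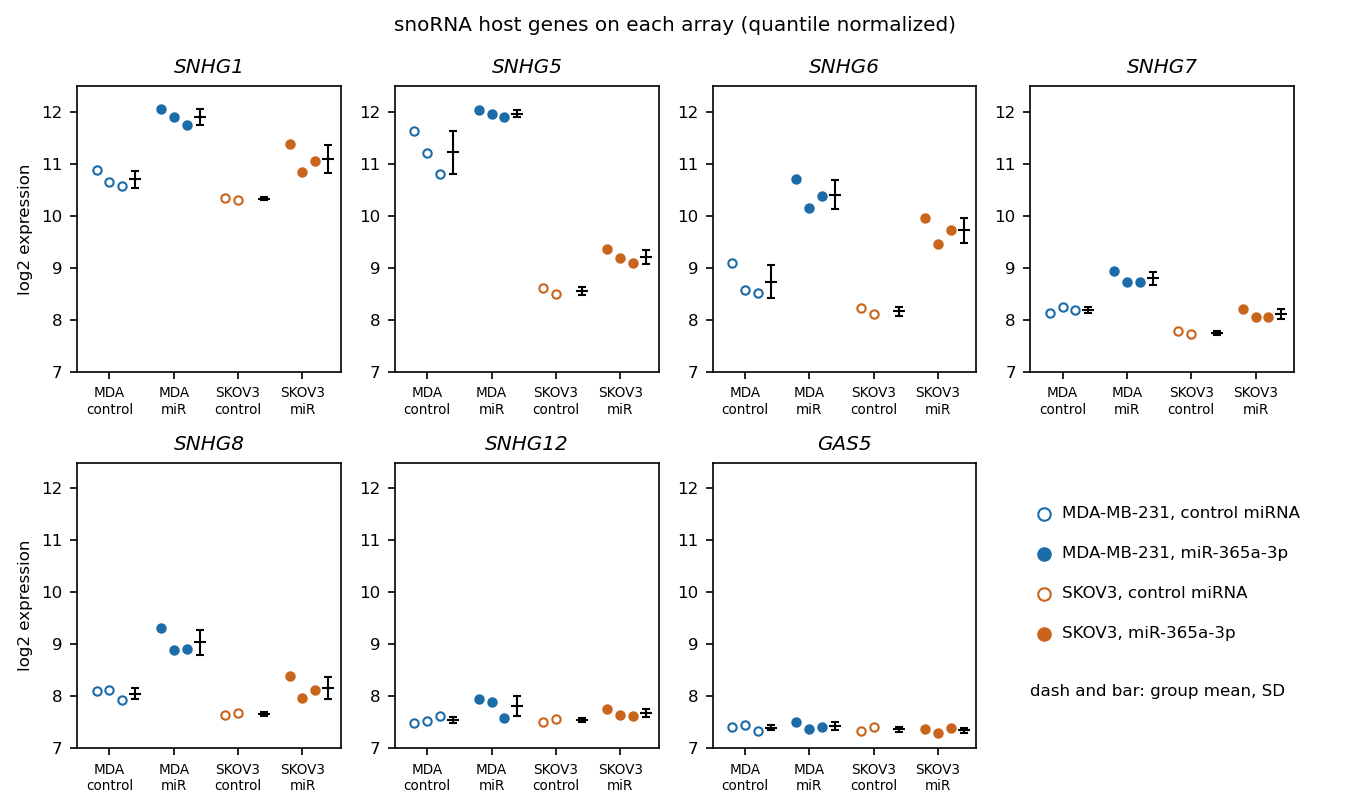
Log2 expression (vertical axis, quantile normalized) of the 7 snoRNA host genes on each of the 11 arrays, with open circles for control miRNA, filled circles for miR-365a-3p, blue for MDA-MB-231 and orange for SKOV3. Dashes with bars are group means with the SD. SNHG6 rises from a mean of 8.73 to 10.41 in MDA-MB-231 cells and from 8.16 to 9.72 in SKOV3 cells, whereas GAS5 stays between 7.29 and 7.50 on every array.

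SNHG1, which carries a series of box C/D snoRNAs in its introns, came next. It was at 12.06, 11.91 and 11.76 with miR-365a-3p against 10.89, 10.65 and 10.58 in the MDA-MB-231 controls. The SKOV3 arrays read 11.38, 10.85 and 11.07 against 10.35 and 10.31. The groups of each line did not overlap, and the difference was 1.20 (SE 0.137, 2.30-fold) and 0.76 (SE 0.154, 1.70-fold). SNHG1 ranked 152 and 492 by size of rise.

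SNHG8, the host of the H/ACA snoRNA SNORA24, was at 9.32, 8.89 and 8.91 with miR-365a-3p against 8.10, 8.12 and 7.93 in the MDA-MB-231 controls. Its SKOV3 values were 8.39, 7.97 and 8.13 against 7.63 and 7.69. Both pairs of groups were apart. The difference was 0.99 (SE 0.135) for MDA-MB-231 and 0.51 (SE 0.151) for SKOV3.

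SNHG5, the host of the pair SNORD50A and SNORD50B, was at 12.04, 11.96 and 11.90 with miR-365a-3p against 11.64, 11.21 and 10.81 in the MDA-MB-231 controls. Much lower SKOV3 values of 9.36, 9.19 and 9.10 stood against 8.60 and 8.50. The miR-365a-3p arrays were above the controls in both lines, and the MDA-MB-231 controls were widely spread (SD 0.415, n = 3). The difference was 0.75 (SE 0.175) for MDA-MB-231 and 0.66 (SE 0.196) for SKOV3.

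SNHG7, a host of H/ACA snoRNAs, was at 8.94, 8.72 and 8.74 with miR-365a-3p against 8.13, 8.25 and 8.19 in the MDA-MB-231 controls. SKOV3 cells had 8.21, 8.06 and 8.05 against 7.78 and 7.72. Groups were apart in both lines with differences of 0.61 (SE 0.0676) and 0.36 (SE 0.0755).

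SNHG12 and GAS5 gave the smallest differences. SNHG12, which carries SNORA61 among others, was at 7.94, 7.90 and 7.59 with miR-365a-3p against 7.49, 7.52 and 7.61 in the MDA-MB-231 controls, groups that overlap. The SKOV3 values were 7.76, 7.64 and 7.62 against 7.51 and 7.57, groups that are apart. The differences were 0.27 (SE 0.0867) and 0.13 (SE 0.097).

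In MDA-MB-231 cells GAS5 was at 7.50, 7.37 and 7.42 with miR-365a-3p and at 7.41, 7.44 and 7.34 in the controls. The SKOV3 arrays read 7.37, 7.29 and 7.38 against 7.33 and 7.405. All 4 groups overlapped, and the differences were 0.031 (SE 0.044) and -0.020 (SE 0.049). These values lie around the median of all rows, near the lower limit of the array, where differences are compressed. Detection p-values were not used here.

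In MDA-MB-231 cells 5 of the 7 hosts were called as higher with miR-365a-3p (SNHG1, SNHG5, SNHG6, SNHG7 and SNHG8), where 14.4% of all rows were. In SKOV3 cells 3 of 7 were called (SNHG1, SNHG6 and SNHG7), where 7.25% of all rows were, and the same 3 were called in both lines, as were 5.76%. Among the 6853 rows with a mean above 8, to which 5 of the 7 hosts belong, 39.0% were called as higher and 26.2% as lower for MDA-MB-231, and 23.4% and 15.3% for SKOV3. Every miR-365a-3p array exceeded every control array for 5 of 7 hosts in MDA-MB-231 cells (21.0% of all rows) and for 6 of 7 in SKOV3 cells (23.7%). Since the hosts were picked with these contrasts known, nothing is read from the shares. The SKOV3 count rests on its 2 control arrays. Without either of them only SNHG6 of the 7 was called in SKOV3 cells.

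The scaling of the arrays moved the differences unequally. On the deposited values without a further normalization the difference of SNHG6 was 1.51 in MDA-MB-231 and 1.34 in SKOV3 cells, and that of SNHG1 was 1.34 and 0.77. On the same values SNHG7 was at 0.25 and 0.10, and SNHG8 at 0.66 and 0.27. SNHG12 turned to -0.043 in SKOV3 cells on the deposited values and to -0.0054 with each array centred on its median. GAS5 turned to -0.031 in MDA-MB-231 cells on the deposited values. The called rows split differently too. With quantile normalization 44.8% of called rows in MDA-MB-231 cells were lower with miR-365a-3p, against 71.2% on the deposited values, 59.1% with median centring and 48.9% with cyclic loess, and in SKOV3 cells the shares were 49.5%, 78.6%, 67.7% and 58.6%.

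**Figure D2:**
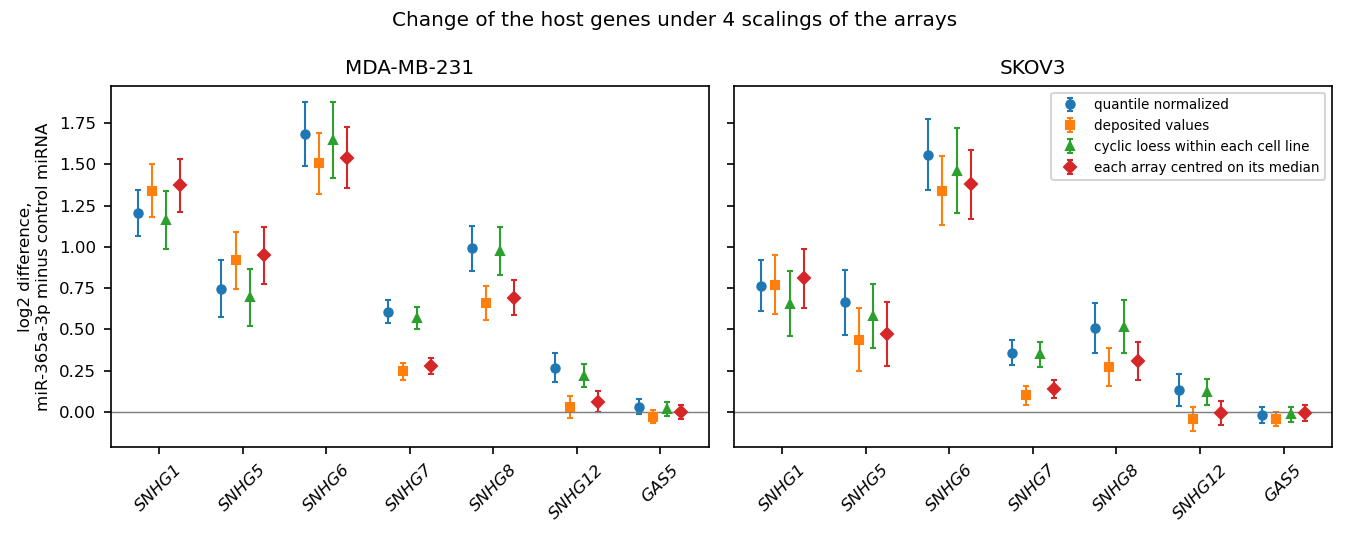
Log2 difference between miR-365a-3p and control miRNA (vertical axis) of the 7 hosts in MDA-MB-231 (left) and SKOV3 (right) under 4 scalings of the arrays. Points are estimates and bars the SE. SNHG6 lies between 1.34 and 1.68 under all 4 scalings in both lines, SNHG7 falls from 0.61 to 0.25 in MDA-MB-231 on the deposited values, and GAS5 stays near 0.

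The shape of the deposited distribution moved with the treatment as well. The 75th percentile of an array was 7.86 to 7.93 in the MDA-MB-231 controls and 7.56 to 7.65 with miR-365a-3p, and 7.98 to 8.04 and 7.67 to 7.80 in SKOV3 cells. The 99th percentile went the other way, from 12.28 to 12.32 in the MDA-MB-231 controls up to 12.51 to 12.64, and from 12.21 to 12.31 in the SKOV3 controls up to 12.41 to 12.49. Of 75 ribosomal protein genes with a mean above 8, 27 rose and 2 fell in MDA-MB-231 cells (median 0.27), and 14 rose and 1 fell in SKOV3 cells (median 0.22). Among all rows with a mean above 8, 39.0% rose for MDA-MB-231 and 23.4% for SKOV3, and 26.2% and 15.3% fell. Of 13 genes of large structural proteins such as AHNAK, MYH9 and LAMC1, 12 fell in MDA-MB-231 cells (median -1.51) and 11 fell in SKOV3 cells (median -1.41). Both lists were set up by gene symbol after values had been seen. The gap between the list medians was 3.17 to 3.73 on MDA-MB-231 control arrays and 5.12 to 5.19 on miR-365a-3p arrays, and 2.75 to 2.92 and 4.69 to 4.81 in SKOV3 cells. The ranges of the gap do not overlap between treatments, so its part in the differences of the hosts and that of the treatment cannot be told apart.

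Within the miR-365a-3p groups the hosts were mostly highest on the same array, and within the control groups the highest array varied among the hosts. In the MDA-MB-231 controls replicates 1, 2 and 3 were the highest for 3, 3 and 1 of the hosts. In the SKOV3 controls replicates 1 and 2 were the highest for 4 and 3. The share of all rows was not counted. Replicate 1 of the miR-365a-3p arrays was the highest of its group for 7 of 7 hosts in MDA-MB-231 cells and for 6 of 7 in SKOV3 cells. The same arrays had the lowest 75th percentile of their group (7.56 and 7.67) and the widest gap between ribosomal and large protein genes (5.19 and 4.81). Among the controls, SNHG1, SNHG5 and SNHG6 were highest on replicate 1 in both lines. Control replicate 1 also had the widest gap of its group (3.73 in MDA-MB-231 and 2.92 in SKOV3). Its 75th percentile was the lowest of the MDA-MB-231 controls (7.86) and the higher of the SKOV3 controls (8.04). The part of these array properties in the values of the hosts was not tested. Over the 11 arrays the Pearson correlation of SNHG6 was 0.962 with SNHG1, 0.905 with SNHG8, 0.834 with SNHG7, 0.737 with SNHG12, 0.523 with SNHG5 and 0.345 with GAS5, a description in which the arrays share treatment and line.

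How far the lines differ in these hosts without the mimic was read from the contrast between the control groups in the fit of all 11 arrays, a contrast that was not used to choose them. SNHG5 had 11.22 ± 0.415 (SD, n = 3) in MDA-MB-231 controls and 8.55 ± 0.0765 (SD, n = 2) in SKOV3 controls. The difference of 2.67 (SE 0.196, 95% confidence interval 2.22 to 3.12, 6.37-fold) passed the limma test with an adjusted p of 3.25e-05. SNHG7 was higher in MDA-MB-231 controls by 0.44 (SE 0.0755, interval 0.27 to 0.61, adjusted p = 0.00370, limma). These 2 of 7 hosts compare with 16.1% of all rows called in either direction. All MDA-MB-231 controls were above all SKOV3 controls for SNHG1, SNHG5, SNHG6, SNHG7 and SNHG8, as for 22.7% of all rows. Neither share was counted among rows with a mean above 8, to which 5 of the 7 hosts belong. The differences of SNHG6 (0.57, interval 0.073 to 1.06, adjusted p = 0.136), SNHG8 (0.39, interval 0.044 to 0.73, adjusted p = 0.144) and SNHG1 (0.37, interval 0.023 to 0.72, adjusted p = 0.171) did not pass the limma test. With the control arrays fitted alone 3 of 7 passed, with SNHG8 added (adjusted p = 0.0222, limma). Those of SNHG12 (0.0038, interval -0.22 to 0.22) and GAS5 (0.029, interval -0.084 to 0.14) did not pass either.

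The order of the 4 groups differed among the hosts. For SNHG6, SNHG1 and SNHG8 it was MDA-MB-231 with miR-365a-3p, SKOV3 with miR-365a-3p, MDA-MB-231 control and SKOV3 control. Neighbouring groups were apart throughout for SNHG6, whereas the SKOV3 miR-365a-3p arrays overlapped the MDA-MB-231 controls for SNHG1 and SNHG8. For SNHG5 and SNHG7 the MDA-MB-231 controls came second, above the SKOV3 miR-365a-3p arrays, apart from them for SNHG5 and overlapping them for SNHG7. For SNHG12 the miR-365a-3p groups of the lines overlapped each other, as did the control groups. All groups of GAS5 overlapped their neighbours, in the order MDA-MB-231 with miR-365a-3p, MDA-MB-231 control, SKOV3 control and SKOV3 with miR-365a-3p.

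Whether the lines respond unequally was tested by the difference between their differences. The fit took the 11 arrays as independent. Deviations of same-numbered miR-365a-3p arrays of the 2 lines were correlated (0.70, 0.31 and 0.34), which was not modelled in this contrast. None of the 7 hosts passed (0 of 7, against 2.54% of all rows), and 2 of 7, SNHG7 and SNHG8, had an unadjusted p under 0.05 (12.8% of all rows). These shares were not counted among rows with a mean above 8 either. The response of SNHG8 was larger in MDA-MB-231 cells by 0.49 (95% interval 0.022 to 0.95, adjusted p = 0.359, limma), that of SNHG1 by 0.44 (interval -0.029 to 0.91, adjusted p = 0.429) and that of SNHG7 by 0.25 (interval 0.017 to 0.48, adjusted p = 0.343). For SNHG6 the difference was 0.12 with an interval from -0.54 to 0.79 (adjusted p = 0.934, limma), an interval that spans 0. SNHG5 gave 0.083 (interval -0.52 to 0.68). The hosts were chosen with the difference in each line known, so no likeness of the lines is read from these results.

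Other noncoding snoRNA hosts were also higher with miR-365a-3p. Of 12 listed, 9 had a row, and all 9 rose in MDA-MB-231 cells (median 0.54, against 0.0064 over all rows). In SKOV3 cells 3 rose and none fell (median 0.37, against 0.0066). Of all rows 14.4% rose for MDA-MB-231 and 7.25% for SKOV3. Among rows with a mean above 8, to which 6 of the 9 belong, 39.0% and 23.4% rose. The 3 called in both lines were ZFAS1, SNHG15 and SNHG10. ZFAS1, the antisense-strand neighbour of ZNFX1 and host of SNORD12 family snoRNAs, rose by 1.14 (adjusted p = 0.00104, limma) and 0.66 (adjusted p = 0.0433) under its older symbol C20orf199. Its SKOV3 arrays were at 9.31, 8.95 and 8.98 with miR-365a-3p against 8.42 and 8.42 in the controls. SNHG15, deposited as C7orf40, rose by 0.94 (adjusted p = 0.00107, limma) and 0.53 (adjusted p = 0.0468). On the deposited and on the median-centred values 5 of the 9 were called for MDA-MB-231 and 0 for SKOV3. The SKOV3 calls were not firm, with 0 of 9 left without either SKOV3 control array, where ZFAS1 had adjusted p-values of 0.195 and 0.204 (limma). The difference of SNHG6 was larger than those of these 9 hosts in both lines, the basis on which it was chosen.

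**Figure D3:**
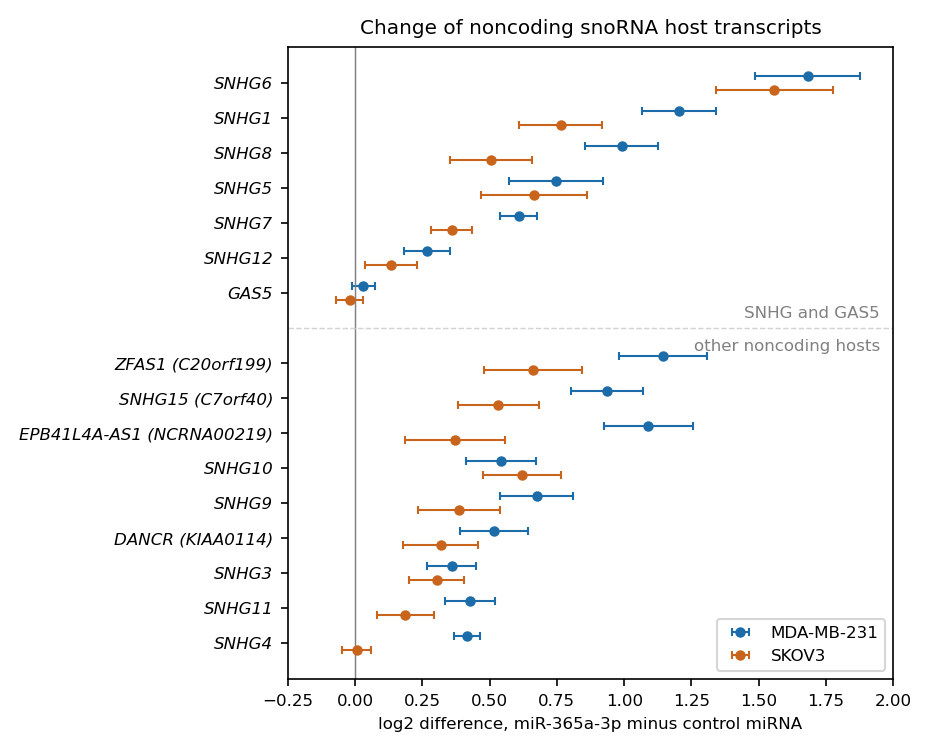
Log2 difference between miR-365a-3p and control miRNA (horizontal axis) of the 7 hosts, above the dashed line, and of 9 other noncoding snoRNA hosts, below it, in MDA-MB-231 (blue) and SKOV3 (orange). Points are estimates and bars the SE. SNHG6 lies at 1.68 and 1.56, and the other hosts from 1.20 (SNHG1) down to 0.031 (GAS5) in MDA-MB-231.

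Protein-coding genes that also carry snoRNAs in their introns did not move in one direction. Of 51 such genes 16 rose and 9 fell in MDA-MB-231 cells (median 0.092), and 9 rose and 5 fell in SKOV3 cells (median 0.063), with 6 rising and 4 falling in both. Of the 51, 46 had a mean above 8, and of all rows at that level 39.0% rose and 26.2% fell for MDA-MB-231 and 23.4% and 15.3% for SKOV3. The medians turned to -0.061 and -0.082 with cyclic loess, where 12 rose and 16 fell for MDA-MB-231 and 5 rose and 6 fell for SKOV3. On the deposited values 23 rose and 8 fell for MDA-MB-231, and 10 and 4 for SKOV3. GNL3, which encodes the nucleolar protein nucleostemin, rose by 1.06 (adjusted p = 0.000853, limma) and 0.86 (adjusted p = 0.00855). RPL13, a protein of the large ribosomal subunit, rose by 0.91 (adjusted p = 6.05e-05, limma) and 0.75 (adjusted p = 0.000632). PABPC4, a cytoplasmic poly(A)-binding protein, fell by 2.41 (adjusted p = 8.16e-06, limma) and by 1.88 (adjusted p = 8.47e-05), and SLC25A3, the mitochondrial phosphate carrier, fell by 1.07 (adjusted p = 0.000828) and by 0.83 (adjusted p = 0.00954). Without SKOV3 control replicate 1 or 2, 4 or 2 of the 51 rose and 3 or 2 fell in SKOV3 cells, and GNL3 and SLC25A3 were not called there.

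Since several spliced hosts are described as removed by nonsense-mediated decay, the transcripts of its factors were counted next. Decay was not measured, and its part in the differences of the hosts was not tested. Of 21 factors 3 rose and 11 fell in MDA-MB-231 cells (median -0.15), and 1 rose and 6 fell in SKOV3 cells (median -0.023). On the deposited values the medians were -0.36 and -0.13. The 6 that fell in both lines were UPF1, SMG1, EIF4A3, CASC3, XRN1 and DCP2. DCP2, the catalytic subunit of the decapping enzyme, fell by 1.38 (adjusted p = 0.000473, limma) and by 0.99 (adjusted p = 0.00874). EIF4A3, the helicase of the exon junction complex, fell by 1.43 (adjusted p = 0.00112, limma) and by 0.93 (adjusted p = 0.0285). Its SKOV3 call was lost on the deposited (adjusted p = 0.0636, limma) and the median-centred values (0.0728). It was also lost without SKOV3 miR-365a-3p replicate 1, 2 or 3 (adjusted p = 0.0757, 0.0535 and 0.0519, limma). UPF1, the central helicase of the pathway, named here after its values were seen, fell by 0.57 (adjusted p = 9.87e-05, limma) and by 0.50 (adjusted p = 0.000684). UPF3A, a paralogue of UPF3B, rose by 0.50 (adjusted p = 0.000206, limma) and 0.41 (adjusted p = 0.00197), calls that were not kept on the deposited or the median-centred values. Without SKOV3 control replicate 1 or 2, 3 factors fell in SKOV3 cells, and DCP2 (adjusted p = 0.0650 and 0.0679, limma) and EIF4A3 (0.183 and 0.118) were not called. In MDA-MB-231 cells 11.7% of all rows fell and in SKOV3 cells 7.11% fell, and 5.39% fell in both. Of the 21 factors 12 had a mean above 8, a level at which 26.2% of rows fell for MDA-MB-231 and 15.3% for SKOV3.

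The protein-coding transcripts best known as targets of the same pathway were few. Of 6 (ATF3, ATF4, DDIT3, GADD45A, GADD45B and TBL2) 2 rose and none fell in MDA-MB-231 cells, ATF3 and GADD45B, and 0 were called in SKOV3 cells in either direction. The medians were 0.24 and 0.20, and 0.057 and -0.032 on the deposited values. Of the 6 genes 5 had a mean above 8. At that level 39.0% of all rows rose for MDA-MB-231 and 23.4% for SKOV3. GADD45B, a stress-induced gene, rose by 1.10 (adjusted p = 0.000420, limma) in MDA-MB-231 cells and was at 0.22 (adjusted p = 0.448) in SKOV3 cells. ATF4, the transcription factor of the integrated stress response, was at -0.093 (adjusted p = 0.657, limma) and 0.16 (adjusted p = 0.555).

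Proteins that assemble with snoRNAs into snoRNPs gave 4 rises and 6 falls among 18 genes in MDA-MB-231 cells (median 0.12) and 3 rises with no fall in SKOV3 cells (median 0.058). On the deposited values the medians were -0.0063 and -0.039. Of the 18 genes 15 had a mean above 8. Of all rows at that level 39.0% rose and 26.2% fell for MDA-MB-231, and 23.4% and 15.3% for SKOV3. NOP58, a core protein of box C/D snoRNPs, rose by 0.86 (adjusted p = 0.000491, limma) and 0.81 (adjusted p = 0.00237). RPAP3, a subunit of the R2TP assembly complex, rose by 1.00 (adjusted p = 0.000554, limma) and 0.74 (adjusted p = 0.00889), and was not called in SKOV3 cells without either control array there (adjusted p = 0.0755 and 0.0571, limma). FBL, the methyltransferase of the box C/D particle, was at 0.24 (adjusted p = 0.178, limma) and 0.091 (adjusted p = 0.799).

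The array also holds rows for snoRNAs from introns of the 7 hosts, 24 of 30 listed. The labelling kit primes on poly(A) tails, which mature snoRNAs lack, so such a row cannot tell a free snoRNA from an unspliced or polyadenylated transcript. Of the 24 rows 14 rose and none fell in MDA-MB-231 cells (median 0.14), and 3 rose and none fell in SKOV3 cells (median 0.057), where 14.4% and 7.25% of all rows rose. On the deposited values 8 rose for MDA-MB-231 and 3 for SKOV3. Only 4 had a mean above 8. The 3 that rose in both lines were SNORD25, from SNHG1, and SNORD76 and SNORD80, both from GAS5. SNORD25 and SNORD76 had means under 8 (7.89 and 7.66), and SNORD80 had 8.55. With SKOV3 fitted alone the SKOV3 call held for SNORD80 (adjusted p = 0.0446, limma), and not for SNORD25 (0.0665) or SNORD76 (0.0901). Without SKOV3 control replicate 1 or 2 the SKOV3 call held for 1 of them, SNORD80 (adjusted p = 0.0254 and 0.0391, limma), and not for SNORD25 (0.0645 and 0.0693) or SNORD76 (0.136 and 0.104). Their SKOV3 differences on the deposited values were 0.40 for SNORD80, 0.30 for SNORD25 and 0.17 for SNORD76.

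SNORD80 was at 9.15, 9.03 and 8.95 with miR-365a-3p against 8.29, 8.35 and 8.40 in the MDA-MB-231 controls. The SKOV3 arrays read 8.84, 8.47 and 8.57 against 7.999 and 7.95. Both pairs of groups were apart, and those of the GAS5 row overlap. The GAS5 row lies near the lower limit of the array, so it cannot show whether the host moved with its snoRNA. SNORD80 rose by 0.69 (SE 0.0892, adjusted p = 0.000620, limma) and 0.65 (SE 0.0997, adjusted p = 0.00300). SNORD76 rose by 0.44 (adjusted p = 0.000907, limma) and 0.30 (adjusted p = 0.0184). The other 6 rows of GAS5 snoRNAs had means from 7.29 to 7.48, with differences from -0.0024 (SNORD77) to 0.29 (SNORD44) in MDA-MB-231 cells.

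SNORD87, the row for the snoRNA of SNHG6, was called in neither line. It was at 7.87, 7.79 and 7.73 with miR-365a-3p against 7.65, 7.73 and 7.58 in the MDA-MB-231 controls. SKOV3 cells had 7.72, 7.60 and 7.73 against 7.61 and 7.57. The difference was 0.14 (adjusted p = 0.0811, limma) and 0.094 (adjusted p = 0.409), at a mean of 7.69 near the lower limit of the array.

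Among the snoRNAs of SNHG1, SNORD25 rose by 0.72 (adjusted p = 0.000474, limma) and 0.52 (adjusted p = 0.00831). SNORD30, SNORD31, SNORD27 and SNORD22 rose in MDA-MB-231 cells by 0.77, 0.58, 0.40 and 0.35 and were at 0.31, 0.31, 0.19 and 0.23 in SKOV3 cells, not called. SNORD26 and SNORD28 were at 0.00021 and 0.057 in MDA-MB-231 cells, with means of 7.30 and 7.36. Of the pair from SNHG5, SNORD50B rose by 0.33 in MDA-MB-231 cells and SNORD50A was at 0.024. SNORA24 from SNHG8 rose by 0.70 (adjusted p = 0.000607, limma) in MDA-MB-231 cells and was at 0.26 in SKOV3 cells. Of the SNHG12 snoRNAs, SNORA61 and SNORA16A rose by 0.51 and 0.13 in MDA-MB-231 cells, and SNORD99 was at -0.061. SNORA17 and SNORA43 from SNHG7 were at 0.035 and -0.0094.

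**Figure D4:**
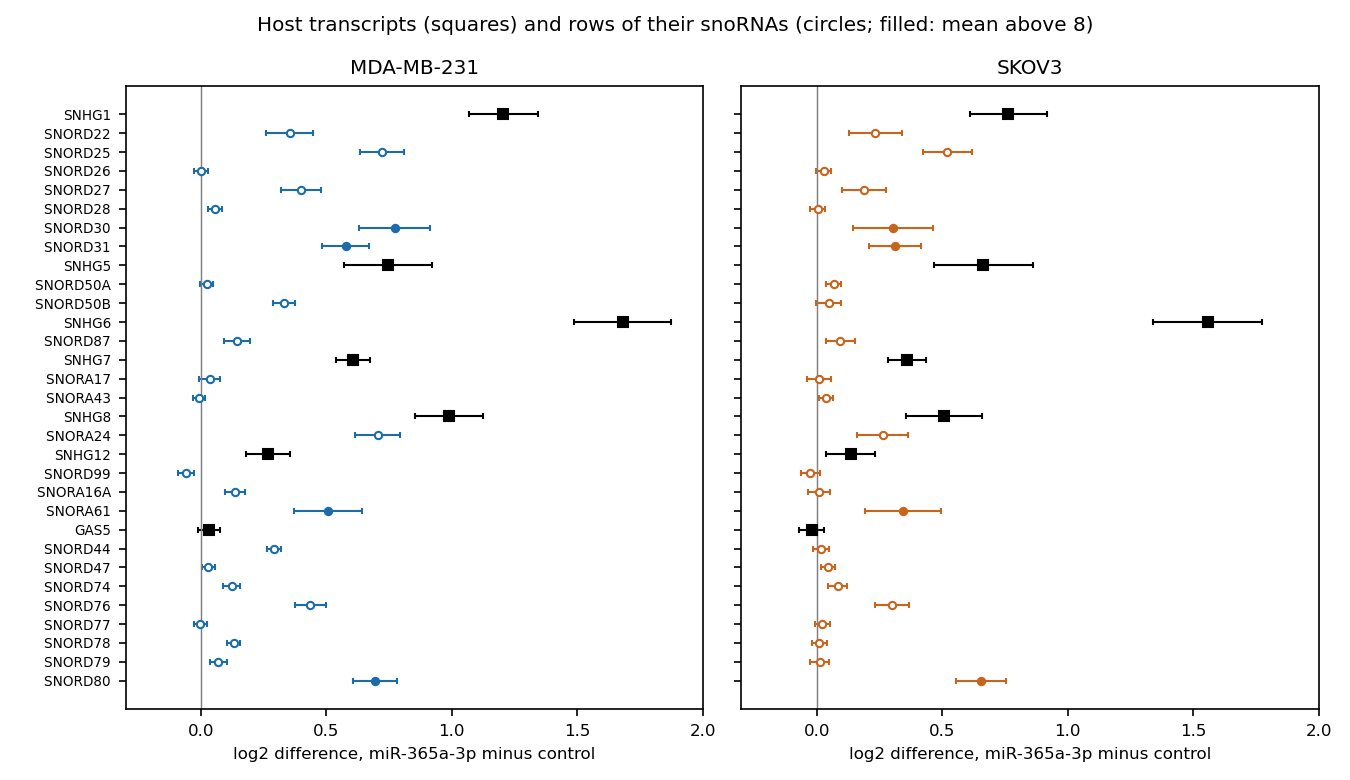
Log2 difference between miR-365a-3p and control miRNA (horizontal axis) of the 7 hosts (black squares) and of the 24 rows of their snoRNAs below each host (circles, filled where the mean is above 8), in MDA-MB-231 (left) and SKOV3 (right). Bars are the SE. SNORD80 lies at 0.69 and 0.65 and its host GAS5 at 0.031 and -0.020, and SNORD87 lies at 0.14 and 0.094 and its host SNHG6 at 1.68 and 1.56. The rows of GAS5 and SNORD87 are near the lower limit of the array, where differences are compressed.

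The rows whose pattern over the 11 arrays was most like SNHG6, among 6848 rows with a mean above 8, were TXNDC17 (Pearson r 0.989), LOC202227 (0.985), LOC100130178 (0.981), C14orf129 (0.980) and RPS21 (0.980). TXNDC17 encodes a small thioredoxin-like protein and RPS21 a protein of the small ribosomal subunit. Their differences were 1.00 and 0.97 for TXNDC17 and 1.39 and 1.12 for RPS21, in MDA-MB-231 and SKOV3 cells. For GAS5 the closest were LOC440927 (0.811), LOC644511 (0.807), LOC729617 (0.800), LOC643949 (0.796) and POLR2L (0.789), at a range of GAS5 values of the size of the spread within groups. These correlations are descriptions over arrays that share treatment and line.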

How the data were processed

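RNA was labelled as biotinylated cRNA and hybridized to HumanHT-12 v4 BeadChips. Quantile normalization by the authors used lumi (named in the submitters' processing notes, version not given in the sources used here), and the deposited log2 values have 1 row per gene symbol, 31325 rows for 11 arrays. Whether the transformation was log2 or variance stabilizing, how probes of a gene were joined and whether background was subtracted are not given in the sources used here, so differences near the lower limit are uncertain in size. The deposited columns did not share a distribution, and were quantile normalized again over all 11 (limma 3.58.1, R 4.3.3). Group means were fitted to all 11 arrays (lmFit, eBayes), with Benjamini-Hochberg adjustment over 31325 rows and a threshold of 0.05. The columns of other samples numbered 0. Array number limits the precision.

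Samples were grouped by the cell line and treatment in the labels. The 7 hosts and the lists were chosen with earlier results of these data known. Besides the 7 hosts, genes were named by rule: in each list the 2 largest rises and the 2 largest falls by the mean of both lines, among genes called in both, all snoRNA rows of the hosts, and the 5 rows with the highest correlation with SNHG6 and with GAS5. Others were named after their values were seen. Of the listed symbols 9 had no row, among them SNHG16, SNHG17 and SNHG18. NOP56 and DKC1 are in the lists of protein-coding hosts and of snoRNP proteins. Older symbols were resolved by alias. 1 listed gene is not reported here. No 2 arrays were identical (highest correlation 0.996). Replicate numbers did not pair arrays within a line (correlations of deviations -0.12, 0.042 and 0.23 in MDA-MB-231 and 0.039 and -0.073 in SKOV3). Between the lines the correlations were 0.70, 0.31 and 0.34 for miR-365a-3p arrays and 0.12 and -0.13 for controls. Sequences came from RefSeq tables of GRCh38.p14, and sites of the seed in transcripts were not analysed here.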

Additional observations from a re-analysis of the deposited data

Results flagged for a closer look

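The response to miR-365a-3p differed between the lines in the limma test for 4 listed genes, none of them among the 7 hosts. SNHG4, a noncoding snoRNA host, rose more in MDA-MB-231 cells by 0.41 (adjusted p = 0.0223), with 0.42 there and 0.0067 in SKOV3 cells. SNORD44, from an intron of GAS5, gave 0.28 (adjusted p = 0.0112), with 0.29 and 0.017. ATF3, a stress-induced decay target, gave 0.21 (adjusted p = 0.0207), with 0.22 and 0.0020. NOLC1, a nucleolar snoRNP chaperone, gave -0.56 (adjusted p = 0.0363), with -0.73 and -0.17. SNHG4, ATF3 and SNORD44 had means of 7.53, 7.45 and 7.48, near the lower limit of the array. With a replicate block none of the 4 passed (adjusted p = 0.258 for SNHG4, 0.114 for NOLC1, 0.113 for ATF3 and 0.190 for SNORD44). None passed on the deposited values, with 0.17 for SNHG4 (adjusted p = 0.360, limma), 0.095 for ATF3 (0.213), 0.11 for SNORD44 (0.346) and -0.71 for NOLC1 (0.0553). Without SKOV3 control replicate 1 or 2 none passed either, at adjusted p-values of 0.0864 and 0.129 for SNHG4, 0.150 and 0.138 for NOLC1, 0.0865 and 0.128 for ATF3 and 0.0753 and 0.0599 for SNORD44. NBAS, a decay factor, is listed because every MDA-MB-231 array with miR-365a-3p stood below the controls and every SKOV3 array above them, with -0.22 and 0.073. The difference between these responses, -0.30, did not pass the limma test (adjusted p = 0.116). No group had 4 arrays, so no single array was tested as standing apart.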

How the results depend on the processing

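The number of hosts called as higher in MDA-MB-231 cells was 5, or 6 with SNHG12, under all alternatives but the covariate below and an adjusted p under 0.01, which gave 4. In SKOV3 cells, where 3 were called, 5 were called when only genes with a mean above the median were tested, with an intensity trend and robust hyperparameters, and with array weights, and 1 at an adjusted p under 0.01. There 2 were called on the deposited and the median-centred values (SNHG1 and SNHG6), 2 with cyclic loess (SNHG6 and SNHG7) and 3 with the line fitted alone (SNHG5, SNHG6 and SNHG7). With single arrays left out the count was 1 to 4 in SKOV3 cells, the 1 being SNHG6 without either SKOV3 control array. Between the controls, where 2 hosts differed, 4 did with a replicate block (SNHG1 and SNHG6 added), 3 with the controls fitted alone, 5 with array weights and 1 (SNHG5) with a log2 difference of at least 0.5. Leaving out arrays gave 2 throughout. The response difference gave 0 of 7 under each alternative that could give a value. With the replicate block 5 hosts were called in MDA-MB-231 and 2 in SKOV3 cells, SNHG7 being lost there, although the numbers did not pair arrays within a line.

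A covariate for the gap between ribosomal and large structural protein genes was added after the data were seen. It left 0 of 31325 rows called in either line, since the gap separates the treatments and standard errors grew 5.14-fold and 5.09-fold at the median. With it 0 hosts were called in either line and 1 (SNHG5) differed between controls. Between the controls SNHG1 turned to -0.053, SNHG6 to -0.17 and GAS5 to -0.035. Its response estimates of opposite sign, among the hosts and the genes named by rule, were, in MDA-MB-231 cells, -0.037 for SNHG1, -1.67 (SE 0.249) for SNHG5, -0.46 for SNHG6, -0.16 for GAS5 and -0.73 for C20orf199 (ZFAS1), and in SKOV3 cells -0.61 for SNHG1, -2.01 (SE 0.275) for SNHG5, -0.81 for SNHG6, -0.36 for SNHG8, -1.41 for C20orf199, -0.28 for C7orf40 (SNHG15), 0.32 for SLC25A3, 0.023 for EIF4A3 and -0.22 for RPAP3. Of the results for single genes over all alternatives, 936 kept their side of the threshold or moved by less than the spread. Of the rest 92 lost a call, 6 gained one, 24 moved by more and 11 were counted as reversed. The 11 are not all changes of sign. With the covariate, SNHG5 and SNHG8 in SKOV3 cells and GAS5 in MDA-MB-231 cells changed sign and were counted as moved. The turned control differences of SNHG1, SNHG6 and GAS5 were counted as kept. SKOV3 has 2 control arrays, detection values were not used here, and differences of rows near the lower limit, GAS5 and SNHG12 among them, are compressed.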
